A study of Mus musculus with 7 samples.

Results

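DQ52 (Ighd4-1) is the D segment nearest the JH segments of the mouse Igh locus. Its junctions were taken by position, as the plus-strand lines of a fixed window on chromosome 12 (mm9) around the segment, and ran from 114673082 to 114673350. They numbered 9191 of 264791 junctions in the 7 libraries. Its share was taken of the 162617 plus-strand junctions from DQ52 to DFL16.1, the stretch that holds the D segments. Each junction is 1 sequenced read that starts in JH4 and continues into the DNA joined to it, as read by HTGTS (high-throughput genome-wide translocation sequencing).

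Antibody heavy chain genes are assembled in developing B cells by V(D)J recombination. A D segment is first joined to a JH segment, and a VH segment is then joined to the DJ unit. The RAG nuclease cuts between each coding segment and its recombination signal sequence (RSS), which is made of a heptamer, a spacer and a nonamer. Coding ends are closed as hairpins, and their opening, trimming and the addition of untemplated bases by terminal transferase shape the final joint. DQ52 is the shortest mouse D segment, and it lies with the JH segments in the region to which RAG is recruited.

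Pro-B cells were used, from bone marrow of 129SVE mice aged 4 to 6 weeks, after a sort for B220+, CD43high and IgM- cells. The groups were WT (n = 3 libraries) and VH81X-CBEscr/scr (n = 4 libraries), and the bait in both was the JH4 coding end. The name of the second group is taken to mean that both alleles carry a scrambled CTCF-binding element next to VH81X, a reading that no label states. The labels leave unsaid whether each library came from its own mouse, so the tests may rest on technical spread. The libraries came from 4 sequencing runs, 0 of which held both genotypes, so genotype and run cannot be told apart. The libraries held 31986 to 46915 junctions in all and 19460 to 30998 junctions in the D region.

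The germline sequences around the joint show the short DQ52 core and the signals on each side of it. They were read as the majority base of the deposited reads and are given on the coding strand, 5′ to 3′. Capitals mark the coding bases and lower case the RSSs. They are DQ52 at chr12:114673061-114673127, an upstream D segment (named D_114687612 after its most frequent junction) at chr12:114687584-114687655, DFL16.1 (Ighd1-1, the D segment farthest from JH here) at chr12:114734516-114734594, and the start of JH4 at chr12:114671094-114671165, all on the minus strand of mm9. D_114687612 is the nearest upstream segment in regular use, since the cluster D_114685205 lies nearer but took 0.0493% of D junctions.
DQ52: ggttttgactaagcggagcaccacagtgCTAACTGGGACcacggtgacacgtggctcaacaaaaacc
D_114687612: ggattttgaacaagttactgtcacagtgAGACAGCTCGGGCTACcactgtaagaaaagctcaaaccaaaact
DFL16.1: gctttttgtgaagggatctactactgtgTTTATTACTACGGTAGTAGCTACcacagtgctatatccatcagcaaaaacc
JH4: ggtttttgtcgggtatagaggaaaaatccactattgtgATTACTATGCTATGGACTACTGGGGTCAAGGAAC

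The DQ52 core held 11 bases (114673089 to 114673099), against 16 in D_114687612 and 23 in DFL16.1. The RefSeq annotation of GRCm38.p6 also gives Ighd4-1 a length of 11 bases. It places Ighd4-1 1961 bases from Ighj4, against 1962 bases between the coding ends in these files. The RSS on the JH side of DQ52, which is used in joining to JH, had the heptamer CACGGTG and the nonamer ACAAAAACC. These differed from the consensus CACAGTG and ACAAAAACC at 1 and 0 bases. The JH-side RSS of D_114687612 differed at 2 and 2 bases, and that of DFL16.1 at 0 and 1 bases. The RSS on the V side of DQ52 differed at 1 and 3 bases. The JH-side RSS of DQ52 is removed by the usual DJ join, so it was read from 12 reads in the opposite orientation, with a depth of at least 3 at each base. The core and the V-side RSS were read at a depth of at least 3427, with at least 99.7% agreement at each base.

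The share of DQ52 among D junctions did not differ between genotypes beyond the spread between libraries. In WT replicates 1 to 3 it took 4.95%, 7.11% and 4.83% of D junctions, from 1123, 1570 and 1498 lines. In VH81X-CBEscr/scr replicates 1 to 4 it took 6.48%, 4.94%, 5.98% and 5.43%, from 1623, 962, 1253 and 1162 lines. WT replicate 2 was the highest library and WT replicate 3 the lowest, so the mutant libraries lay inside the WT range. The 95% Wilson interval of WT replicate 2 was 6.78% to 7.46% and that of WT replicate 3, from the same run, 4.60% to 5.08%. Among lines not marked duplicate these intervals overlapped, at 6.85% to 9.13% and 5.71% to 7.21%. Means were 5.63% ± 1.28 (SD, n = 3) and 5.71% ± 0.668 (SD, n = 4), a ratio of 1.01. The log2 share differed by 0.036 (two-sided exact permutation p 0.886 over the 35 ways to place the labels, where 0.0286 is the smallest possible). Intervals cover counting error only, since reads amplified by PCR without molecular identifiers are not independent molecules.

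**Figure D1:**
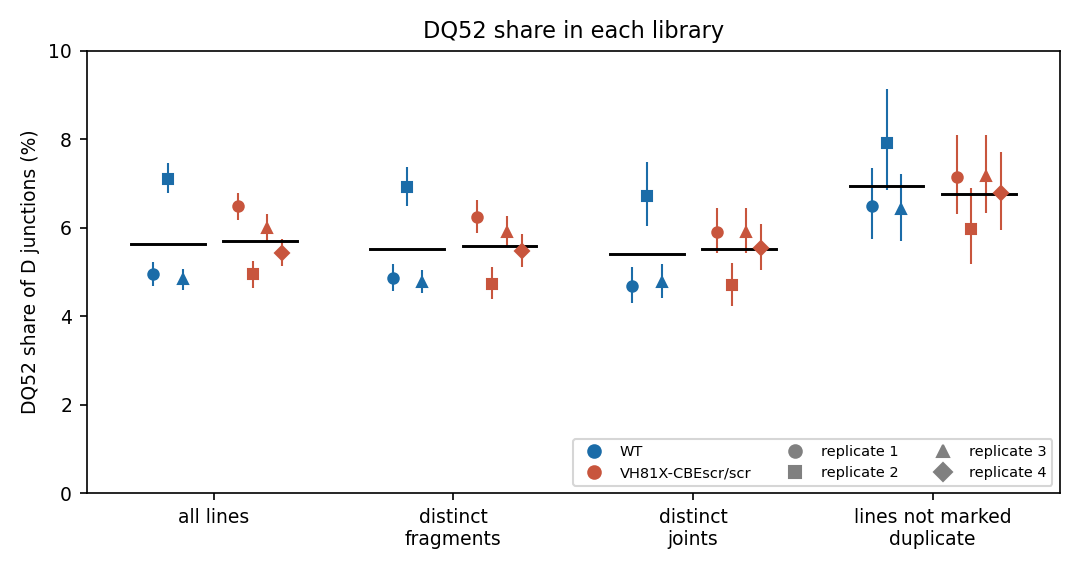
Share of D junctions (percent, y axis) that lie at DQ52 in each library, for 4 ways of counting (x axis). Points are libraries with 95% Wilson intervals, black lines are group means, and WT replicate 2 is the highest library in each way of counting, from 6.72% of distinct joints to 7.92% of lines not marked duplicate.

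A fit over all D segments did not call DQ52 either. Of 24 D segments tested with limma-voom, 4.17% were called, which is 1 segment (D_114687612). The log2 fold change of DQ52 was 0.06 (SE 0.130, 95% interval -0.22 to 0.35, limma-voom adjusted p 0.889). Without WT replicate 2 the log2 fold change was 0.23, and without WT replicate 3 it was -0.05.

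By mean share over the 7 libraries DQ52 was the ninth of the 24 tested clusters, and its rank ran from 6 to 11 between libraries. The first 12 clusters took 3.37% to 22.3% of D junctions each and the other 12 at most 0.638%, so DQ52 was the ninth of 12 segments in regular use. D_114710077, next above it, took 6.16% ± 0.535 (SD, n = 7), and D_114700407, next below it, took 5.62% ± 0.382. DQ52 took 0.484 percentage points less than D_114710077 (SD of the difference 1.09) and 0.0616 more than D_114700407. Neither difference exceeded its spread, and DQ52 was the higher segment in 2 and 3 of 7 libraries. The D segments with the smallest distance in centred log2 share from DQ52 over the 7 libraries were DFL16.1, D_114705399 and D_114719358. Their root mean square distances were 0.184, 0.196 and 0.205 on the log2 scale. Such a distance is also small for a segment whose share hardly varies, so it does not show that these segments moved with DQ52. DFL16.1 took 20.4% to 23.2% of D junctions in a library, D_114705399 8.64% to 10.6% and D_114719358 5.69% to 7.23%. DFL16.1, like DQ52, was highest in WT replicate 2. D_114705399 was highest in VH81X-CBEscr/scr replicate 2, where DQ52 took 4.94%, and D_114719358 in WT replicate 1, where DQ52 took 4.95%. Shares of 1 total are not independent of each other.

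JH4 most often joined DQ52 at its intact end. For joint structure, 9145 DQ52 lines were used in which the junction lay within 100 bases of the DQ52 coding end and the bait ended at JH4. Junctions at the coding end itself (114673089) made up 32.4% of these lines, with 29.7% in the lowest and 37.8% in the highest library. A further 4.69% lay 1 base past it, where a coding-strand C matches the first RSS base, so an added base and a germline base cannot be told apart there. Together with 0.350% that reached 2 to 7 bases past the end, no DQ52 base was lost in 36.8%, 36.9% and 36.2% of lines in WT replicates 1 to 3. In VH81X-CBEscr/scr replicates 1 to 4 the values were 35.7%, 41.6%, 34.3% and 42.9%. The genotypes overlapped, with the lowest and the highest library both in VH81X-CBEscr/scr.

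Trimming of DQ52 was mostly short, but a part of the joints had lost the whole segment. Losses of 1 to 3 bases made up 31.9% of lines, of 4 to 6 bases 14.8% and of 7 to 10 bases 5.51%. All 11 bases of the core were lost in 10.3% of lines, with 7.69% in the lowest and 11.5% in the highest library. In most of these the junction lay inside the heptamer of the V-side RSS (7.61% of all lines), and in fewer in the spacer (2.14%) or the nonamer and beyond (0.580%). Such joints carry no aligned DQ52 coding base. The mean loss at the D end was 3.69, 3.53 and 3.62 bases in WT replicates 1 to 3. It was 3.82, 2.93, 3.72 and 3.50 bases in VH81X-CBEscr/scr replicates 1 to 4. The group means of 3.61 ± 0.0806 and 3.49 ± 0.396 bases (SD, n = 3 and 4) differed by -0.119 bases (exact permutation p 0.8).

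**Figure D2:**
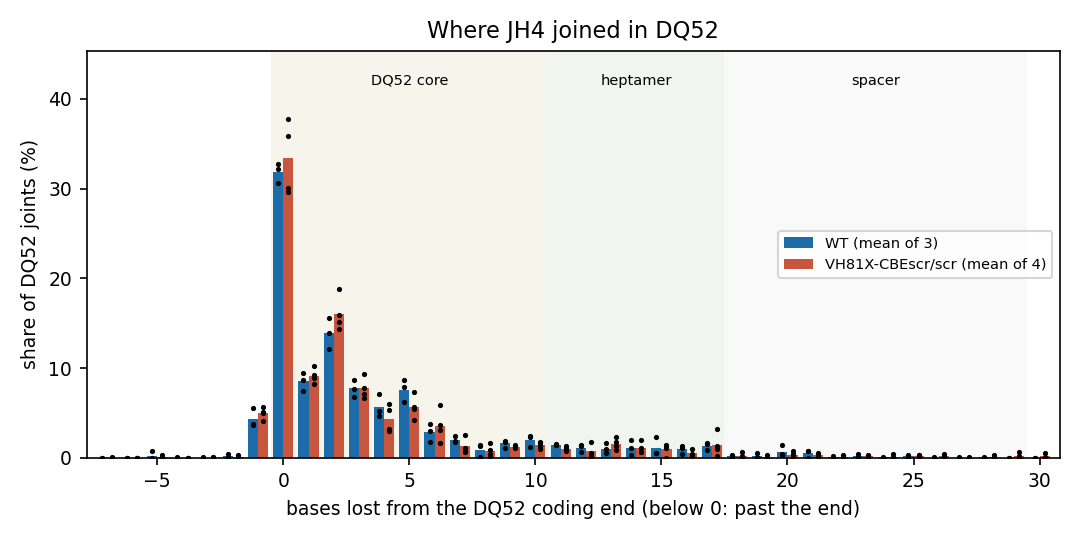
Share of DQ52 joints (percent, y axis) by the number of bases lost from the DQ52 coding end (x axis), with bars for group means, dots for libraries and shading for the core, the V-side heptamer and the spacer. The position at the coding end holds 29.7% to 37.8% of joints in a library, and 10.3% of all joints lie past the core.

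At the JH4 end, trimming was longer and had preferred stops. In WT replicates 1 to 3, the mean loss at JH4 was 5.86, 5.92 and 5.84 bases. In VH81X-CBEscr/scr replicates 1 to 4 it was 6.70, 5.81, 5.44 and 6.16 bases. The mutant libraries spread on both sides of the WT libraries, and the means of 5.87 ± 0.0406 and 6.03 ± 0.538 bases (SD, n = 3 and 4) differed by 0.157 bases (exact permutation p 0.714). JH4 was untrimmed in 11.5% of lines, lost 1 to 8 bases in 72.3% and 9 or more in the remaining 1473 lines. Among losses of 1 base or more, those of 4 bases (15.8%) and of 8 bases (14.3%) were the most frequent. A loss of 4 leaves JH4 starting with CTATG and a loss of 8 leaves it starting with GCTATGG. Losses of 20 bases or more, which remove all bases before the conserved tgg codon of JH4, made up 2.72%.

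**Figure D3:**
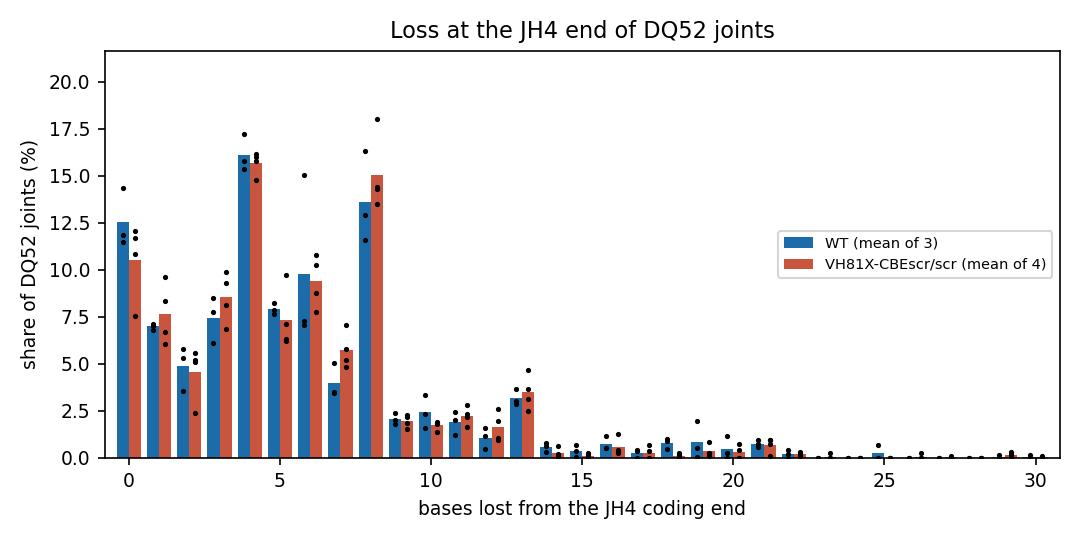
Share of DQ52 joints (percent, y axis) by bases lost from the JH4 coding end (x axis), with bars for group means and dots for libraries. Peaks stand at losses of 4 and 8 bases, which hold 15.8% and 14.3% of joints, and few joints lie past 13 bases.

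The share of untrimmed JH4 ends is a lower bound in these files. In all 7 libraries, 0 of 264791 lines had a bait alignment that ended 1 base past the JH4 coding end, while 33264 ended at it and some ended 2 or more bases past it (48 of the DQ52 joints). Joints in which exactly 1 base after an untrimmed JH4 matched the RSS are therefore not represented.

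Inserted bases were found in most DQ52 joints. They were present in 85.5%, 85.8% and 87.9% of lines in WT replicates 1 to 3. In VH81X-CBEscr/scr replicates 1 to 4 they were present in 87.0%, 86.6%, 87.6% and 89.2%. The means were 86.4% ± 1.30 and 87.6% ± 1.13 (SD, n = 3 and 4) and differed by 1.21 percentage points (exact permutation p 0.286). Inserts of 1 to 5 bases made up 68.9% of all lines, those of 6 to 10 bases 16.3% and longer ones 1.91%, with a longest insert of 30 bases. Where any base was inserted the mean was 3.92 ± 0.0356 bases in WT and 3.91 ± 0.221 in VH81X-CBEscr/scr (difference -0.019, exact permutation p 0.943). Ends were joined directly, with neither inserted nor shared bases, in 8.63% of lines. In 4.31% of lines the D and JH4 alignments shared bases that either end could have given, which were 1 or 2 bases long in 3.53% and 3 or more in 0.776%. Shared bases were found in 4.04% ± 0.965 of WT lines and 4.49% ± 0.853 of VH81X-CBEscr/scr lines (exact permutation p 0.571).

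**Figure D4:**
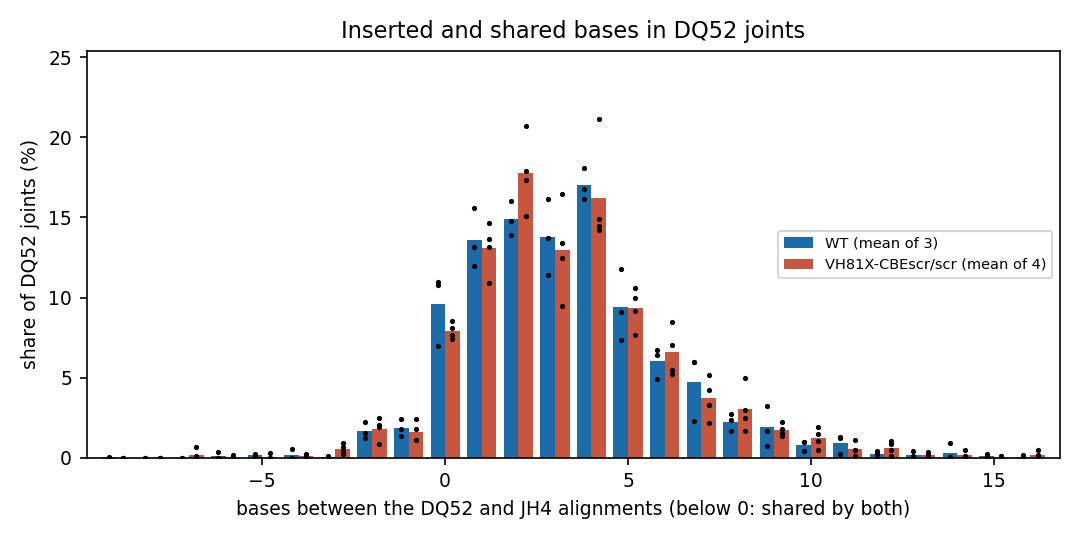
Share of DQ52 joints (percent, y axis) by the number of bases between the DQ52 and JH4 alignments (x axis), where values below 0 are bases shared by both. Bars are group means and dots libraries, and 68.9% of joints hold 1 to 5 inserted bases.

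The base added next to an untrimmed end was mostly the one that copies that end as a palindrome. Such P bases arise when a hairpin is opened away from its tip. DQ52 ends in c on the coding strand, so its P base is g. Among 2757 lines with an untrimmed DQ52 end and an insert, the base next to DQ52 was G in 82.4%, with 77.3% in the lowest and 87.4% in the highest library. Where DQ52 was trimmed inside its core, at positions where G does not continue the germline, the base next to it was G in 36.6% of 2624 lines. The difference was 45.3 ± 7.92 percentage points (SD, n = 7), higher in 7 of 7 libraries (two-sided exact sign-flip permutation p 0.0156, adjusted p 0.0156 over 2 ends, the smallest possible). JH4 starts with a, so its P base is T. T stood next to an untrimmed JH4 end in 80.2% of 980 lines and next to a JH4 end trimmed by 1 to 12 bases, where T does not continue the germline, in 42.1% of 3295 lines. That difference was 39.1 ± 5.57 percentage points, also higher in 7 of 7 libraries (exact sign-flip permutation p 0.0156, adjusted p 0.0156). At each untrimmed end, 1 of the 4 bases cannot appear, C next to DQ52 and G next to JH4. Such a base would continue the germline alignment or, at JH4, is missing as described. Next to the trimmed ends, C made up 29.3% of lines at DQ52 and G 33.96% at JH4. At each trimmed position used, the base that would continue the germline is also barred, and it is never the P base. A base other than the P base is thus barred at both kinds of end, but which base it is differs between them. The differences and their p-values therefore do not measure P bases alone. How much of each difference comes from the barred bases was not tested. With inserts of 2 or more bases, both bases next to an untrimmed DQ52 end were palindromic in 569 of 2475 lines, and next to JH4 in 238 of 866 lines.

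Bases inserted between ends that were both trimmed are not counted as P bases, and they were rich in G. Over 4140 such lines with 15904 inserted bases, G made up 40.7% on the coding strand, C 23.6%, T 21.3% and A 14.4%. G and C together made up 62.5% to 65.6% in the 7 libraries. The order G first and A last held in every library.

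The 5 most frequent DQ52 joints, ranked by their mean share over the libraries, show these features in single sequences. Each is given on the coding strand from the first base of the DQ52 core to the tgg codon of JH4, with inserted bases in capitals, except joint 2, where capitals mark the bases shared by both ends.
Joint 1: ctaactgggacGatgctatggactactgg
Joint 2: ctaactgggACtatgctatggactactgg
Joint 3: ctaactgggacGGGGgctatggactactgg
Joint 4: ctaactgggctatgctatggactactgg
Joint 5: ctaactgggTctatgctatggactactgg

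Joint 1 keeps the whole DQ52 core, adds a G that matches the P base and loses 6 bases of JH4. Whether this G is a P base or an untemplated base cannot be told from the sequence. Joint 1 held 0.520% to 1.66% of DQ52 joints in a library, from 96 lines and 70 distinct fragments. Joint 2 overlaps DQ52 and JH4 by the shared bases ac, and held 0.446% to 2.08% of DQ52 joints. Joint 3 keeps the whole core, adds GGGG and loses 8 bases of JH4, and held 0.448% to 1.23%. Joint 4 joins the ends directly after a loss of 2 bases of DQ52 and 4 of JH4, was found in 6 of 7 libraries and held up to 1.54%. Joint 5 has the same losses with a T added, and held 0.173% to 1.05%. Joints 1, 2, 3 and 5 were found in 7 of 7 libraries. Over all libraries, 2345 distinct joints were found, of which 400 occurred in 2 or more libraries and held 45.8% of lines. A further 1945 occurred in 1 library only.

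Each reading frame of DQ52 held 27.8% to 38.8% of joints in every library. The frame was set by the number of bases between the start of the core and the tgg codon of JH4, over lines that kept at least the first 4 core bases. The frame that reads cta act ggg held 34.5% ± 1.33 of WT lines and 33.6% ± 0.976 of VH81X-CBEscr/scr lines (SD, n = 3 and 4). The frame that reads taa ctg gga, which opens with a stop codon, held 31.3% ± 2.36 and 31.2% ± 3.36. The frame that reads aac tgg gac held 34.3% ± 3.62 and 35.2% ± 4.09. Over libraries the frame with the stop codon ran from 27.8% to 34.5%. No frame passed the test between genotypes (exact permutation p 0.371, 1 and 0.771). In all, 10 measures of DQ52 were compared between genotypes, and after Benjamini-Hochberg adjustment each had an adjusted p of 1. No measure separated the 3 WT from the 4 mutant libraries.

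DQ52 kept its end intact more often than DFL16.1 and less often than D_114687612. These comparisons were made within each of the 7 libraries, with two-sided exact sign-flip permutation tests (smallest possible p 0.0156) and adjustment over 21 comparisons. No D base was lost in 37.8% ± 3.21 of DQ52 joints (SD, n = 7), in 21.5% ± 1.94 of DFL16.1 joints and in 48.2% ± 2.47 of D_114687612 joints. The difference was 16.3 percentage points from DFL16.1, higher in 7 of 7 libraries, and -10.4 from D_114687612, lower in 7 of 7 libraries (exact sign-flip permutation p 0.0156, adjusted p 0.0298, for each). The mean D-end loss of 3.54 ± 0.291 bases was 1.95 bases shorter than that of DFL16.1, a difference of -1.95 (exact sign-flip permutation adjusted p 0.0298). DFL16.1 lost 7.90 bases in WT replicate 2, against 4.80 to 5.35 in the other libraries, and without that library the difference was -1.55. Among lines not marked duplicate it was -4.36, a setting that may give frequent ends less weight. Against D_114687612 the difference of -0.642 bases did not pass (exact sign-flip permutation p 0.0625, adjusted p 0.0875), while among distinct joints it was -1.01 (exact sign-flip permutation p 0.0156).

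Losses of 11 or more bases, which remove all of DQ52 but only part of the longer cores, did not pass the test between the segments in all lines. They made up 10.3% ± 1.27 of DQ52 joints, 13.3% ± 5.66 of DFL16.1 joints and 11.4% ± 2.97 of D_114687612 joints (exact sign-flip permutation adjusted p 0.103 and 0.432). DFL16.1 in WT replicate 2 stood apart at 26.1%, against 10.3% to 11.9% in the other libraries. Without that library the difference between DQ52 and DFL16.1 was -0.796 percentage points. The difference was -2.96 percentage points among distinct joints and -12.4 among lines not marked duplicate (exact sign-flip permutation p 0.0156 for each). Unmarked DQ52 lines were nearer in number to the distinct pairs of junction and bait end than to the fragments, so frequent ends may have less weight there. More lines were marked in DFL16.1 (91.7% ± 1.25) than in DQ52 (83.4% ± 3.22). The value of -12.4 can therefore not be read as a difference in trimming alone.

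**Figure D5:**
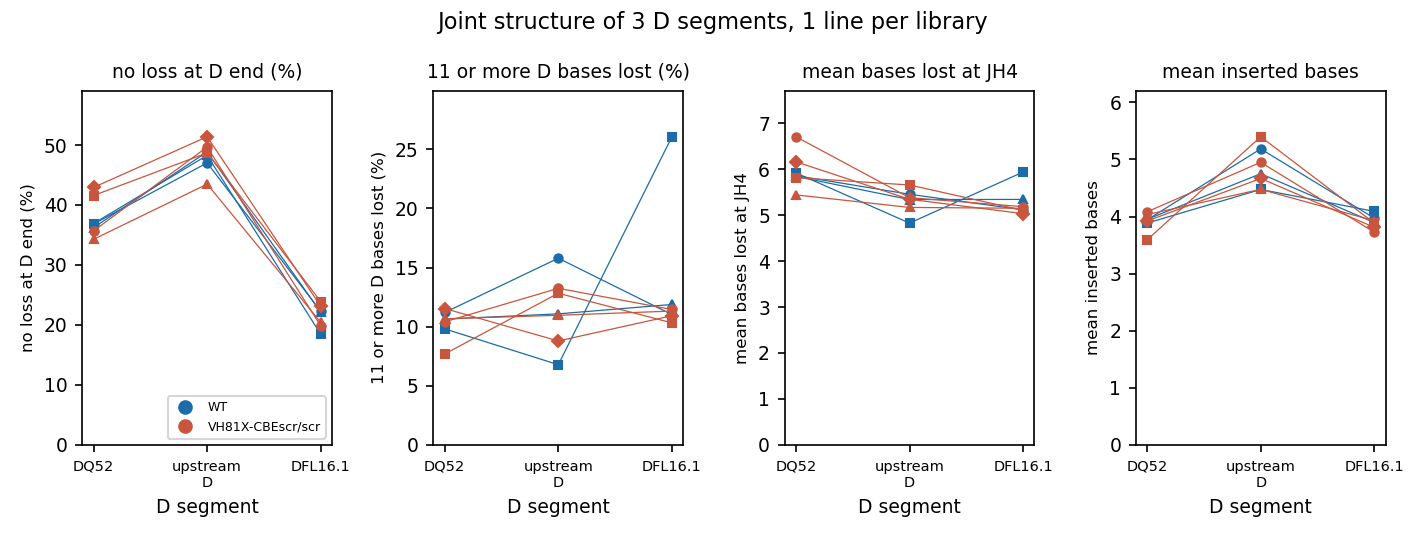
Joint structure of DQ52, D_114687612 (upstream D) and DFL16.1, with 1 line per library and the measure named on each y axis (percent of joints or bases). In the panel for no loss at the D end, DQ52 lies between the other segments in 7 of 7 libraries, while DFL16.1 in WT replicate 2 stands apart in the panel for 11 or more bases lost.

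Loss at JH4 was longer in DQ52 joints than in joints of D_114687612. The mean of 5.96 ± 0.390 bases (SD, n = 7) was 0.653 bases above that of D_114687612 and 0.569 above that of all other D joints, higher in 7 of 7 libraries (exact sign-flip permutation p 0.0156, adjusted p 0.0298, for each). Among lines not marked duplicate the difference from all other D joints was -0.130 and had no direction beyond its spread (exact sign-flip permutation p 0.625). Against DFL16.1 the mean was 0.697 bases longer in all lines (exact sign-flip permutation p 0.0313) but did not pass after adjustment (adjusted p 0.0505). It was 0.352 longer in distinct joints and shorter among lines not marked duplicate (-1.09, exact sign-flip permutation p 0.0156). The latter setting may give frequent ends less weight, so its sign does not settle the direction. In WT replicate 2 alone DFL16.1 had the longer mean loss at JH4, at 5.94 bases against 5.92 in DQ52, and 28.2% of its joints there had lost exactly 8 bases of JH4, against 10.5% to 13.6% in the other libraries.

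DQ52 joints carried fewer inserted bases than D_114687612 joints and than all other D joints taken as 1 set. Where any base was inserted, the mean of 3.91 ± 0.158 bases was -0.928 from that of D_114687612 and -0.500 from that of all other D joints, lower in 7 of 7 libraries (exact sign-flip permutation p 0.0156, adjusted p 0.0298, for each). These differences were -1.63 and -1.05 among lines not marked duplicate, with the same limit on that setting. The mean for DFL16.1, 3.90 ± 0.116 bases, was near that of DQ52 in all lines (difference 0.014, exact sign-flip permutation p 0.891). The difference from DFL16.1 was -0.224 among distinct joints (exact sign-flip permutation p 0.0313). Inserts were present in 87.1% ± 1.27 of DQ52 joints and in 91.6% ± 2.13 of D_114687612 joints, lower in 7 of 7 libraries (exact sign-flip permutation adjusted p 0.0298). They were present in 89.5% ± 0.608 of all other D joints, where DQ52 was lower in 6 of 7 libraries and the difference did not pass after adjustment (exact sign-flip permutation p 0.0313, adjusted p 0.0505). Shared bases were less frequent in DQ52 joints (4.30% ± 0.855) than in DFL16.1 joints (6.82% ± 0.926, exact sign-flip permutation adjusted p 0.0298), but were the more frequent by 0.524 percentage points among distinct joints.

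Most DQ52 lines were marked as duplicates by the authors, and most distinct fragments had marked lines only. Marked lines made up 79.6%, 89.2% and 83.2% of DQ52 joints in WT replicates 1 to 3. In VH81X-CBEscr/scr replicates 1 to 4 they made up 86.1%, 81.6%, 82.1% and 82.1%. A distinct joint is counted here by its junction, bait end and inserted bases, and a distinct fragment also by the end of the sequenced D flank. Each library held 311 to 582 distinct joints and 646 to 1242 distinct fragments. Of the distinct fragments in a library, 72.6% to 80.6% had only marked lines. Lines not marked numbered 170 to 249 per library, against 135 to 199 distinct pairs of junction and bait end. The number of unmarked lines was thus closer to that of the end pairs than to that of the fragments.

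WT replicate 2 was the most repeated library. Each distinct DQ52 joint held 5.05 lines there, against 2.34 to 3.32 in the other libraries, and each distinct fragment 1.79 lines, against at most 1.57. Lines per distinct joint were 3.31 ± 1.50 in WT and 2.88 ± 0.308 in VH81X-CBEscr/scr (SD, n = 3 and 4, exact permutation p 0.8), and without WT replicate 2 the difference turned from -0.435 to 0.431. No single joint dominated DQ52, since the most frequent joint of each library held 1.28% to 2.08% of its DQ52 joints. Among lines not marked duplicate, DQ52 took 5.98% to 7.92% of D junctions, higher than among all lines in 7 of 7 libraries. Its mean share was 6.84% in that setting, against 5.68% of all lines, 5.56% of distinct fragments and 5.46% of distinct joints. The rise was thus particular to the duplicate mark. DQ52 lines were marked less often (83.4% ± 3.22, SD, n = 7) than those of all other D joints (86.5% ± 2.05) and of DFL16.1 (91.7% ± 1.25), and more often than those of D_114687612 (79.7% ± 4.62). Each order held in 7 of 7 libraries, and these differences were not tested.

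A few DQ52 reads ran past JH4 or joined in the other orientation. In 43 lines the bait alignment ran 538 to 567 bases past the JH4 coding end before reaching DQ52. The same annotation places the end of Ighj3 565 bases past that of Ighj4, so these are read as DQ52 joined to JH3 with the JH3 to JH4 interval intact. They numbered 7, 1 and 12 in WT replicates 1 to 3 and 14 and 9 in VH81X-CBEscr/scr replicates 3 and 4. VH81X-CBEscr/scr replicates 1 and 2, sequenced in 1 run, held 0 of 1623 and 0 of 962 lines. If each line were its own molecule, this would allow up to 0.185% and 0.312% (3 counts). These lines came from 489 and 342 distinct joints, so the limits are too low. Minus-strand lines in the DQ52 window, the orientation that an inversion gives, numbered 17 in 7 distinct joints, 12 of them in WT replicate 1, 1 in VH81X-CBEscr/scr replicate 2 and 4 in replicate 4. They made up 0.185% of all lines in the window, against 0.161% in the rest of the D region. Without WT replicate 1 the order turned, with 5 lines (0.0619%) against 0.174%.

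DQ52 was also traced inside V(D)J joins, where the D segment lies between the V and JH4 alignments. Inserted bases were searched for any run of 8 bases of the DQ52 core in junctions upstream of the D region. Such a run was found in 1.53%, 1.23% and 1.49% of lines in WT replicates 1 to 3, from 261, 136 and 224 lines. In VH81X-CBEscr/scr replicates 1 to 4 it was found in 1.96%, 1.29%, 1.76% and 1.62%, from 239, 153, 231 and 256 lines. The core read backwards gave 0 to 4 lines per library, at most 0.0266%. Means of 1.42% ± 0.162 and 1.66% ± 0.280 (SD, n = 3 and 4) differed by 0.238 percentage points (exact permutation p 0.229). These values cannot be set against the share of DQ52 among DJ joins, since trimming on both sides removes cores from the search. In the DJ joins, which are trimmed on the JH side only, 69.3% of DQ52 lines kept 8 or more core bases.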

How the data were processed

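The deposited files list 1 junction per line, with positions, strands, read sequence and filter marks, per the file headers. Reads were aligned with Bowtie2 to mm9, per the submitters' processing notes, with no version given in the sources used here. The members and comparisons were chosen with earlier results of these data known. No file holds counts, so lines were counted here, repeat lines included. Trimming was measured from the junction and bait end to the coding ends, and inserted bases from the read positions between the alignments. Lines less than or equal to 300 bp apart were joined into D segments if they numbered 10 or more, and those with a mean of at least 10 lines in either genotype were tested with limma-voom (limma 3.58.1, R 4.3.3) with Benjamini-Hochberg adjustment and a threshold of 0.05. Single values were compared by exact permutation over the 35 ways to place the genotype labels, and D segments within libraries by exact sign-flip permutation over 128 patterns, both two-sided. Named comparisons are DFL16.1, D_114687612, the 3 D segments closest in centred log2 share and the 5 most frequent joints. The limma-voom fit was tested on simulated data, where 100% of 4-fold changes among a median of 24 tested D segments were recovered. There was a mean of 0.7 false calls per draw over 20 draws. The simulation gave all segments the same extra spread between libraries, and smaller changes were not simulated. It therefore does not show whether a change near the DQ52 log2 fold change of 0.06 would be found. Python 3.11.15, SciPy 1.17.1 and pandas 2.3.3 were used. The alternatives count lines not marked duplicate, distinct fragments or distinct joints, or change the denominator, the window or the libraries. Left out of joint structure were 46 lines with the bait past JH4, of which 2 also lay over 100 bases from DQ52. A genome sequence was not used here.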

Additional observations from a re-analysis of the deposited data

Results flagged for a closer look

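In VH81X-CBEscr/scr replicate 4, 3.21% of DQ52 joints had bases shared by both ends, against 4.89% to 4.93% in the other 3 mutant libraries, a gap of 0.974 of the range of the group. In VH81X-CBEscr/scr replicate 1, 86.1% of DQ52 joints were marked duplicate, against 81.6% to 82.1% in the others, a gap of 0.882 of the range. Chance gives such a gap in about 1 in 20 groups of 4. More than 1 measure was screened, so the rate of at least 1 such flag by chance is higher.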

How the results depend on the processing

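Of 335 alternative values for 35 results, 268 kept their direction and side of the threshold, and 17 results never turned. No genotype comparison of DQ52 passed under any setting tried. The exact permutation tests between genotypes could not pass with 1 library left out or with the replicate block. Their smallest possible p was 0.0667 without a WT library, 0.1 without a mutant library and 0.25 with the block. Where the direction held, these settings are counted among the 268. Among lines not marked duplicate, the difference between genotypes turned to -0.033 for the log2 share of DQ52, 0.097 bases for D-end loss, 0.130 bases for mean insert, 0.010 for lines per distinct joint, and 2.40, 0.159 and -2.56 percentage points for the frames that open with cta, with taa and with aac. Over all lines as denominator the log2 share turned to -0.0070. Among distinct joints the differences turned to -0.371 points for shared bases (-0.132 among distinct fragments), 0.0387 bases for mean insert, and 0.313, 0.404 and -0.717 points for the frames.

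The replicate numbers do not pair the libraries (correlations of deviations over 24 D segments -0.474, 0.051 and -0.149). With them as a replicate block the DQ52 log2 fold change was 0.08 and the number of D segments called went from 1 to 0. The block turned the frames that open with taa and with aac to 0.744 and -0.271 points.

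Leaving out 1 library gave -0.062 to 0.216 for the log2 share, -0.052 to 0.228 for the fitted log2 fold change, -0.229 to 0.067 bases for D-end loss, -0.068 to 0.354 for JH4-end loss, -0.077 to 0.087 for mean insert, -0.919 to 0.431 for lines per joint, and -1.13 to 1.27 and -1.15 to 2.40 points for the frames that open with taa and with aac.

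Against DFL16.1, lines not marked duplicate gave -12.4 points for 11 or more D bases lost, -1.09 bases for JH4-end loss, -0.681 points for shared bases, -0.397 bases for mean insert and -0.0035 for lines per joint. Distinct joints gave -2.96 points for 11 or more bases lost, -2.72 for inserts, 0.524 for shared bases and -0.224 bases for mean insert. Against D_114687612, lines not marked duplicate gave -1.54 bases for D-end loss, 2.33 points for shared bases and -0.0013 for lines per joint, and distinct joints gave -1.01 and 0.542 for the former 2. Against all other D joints, lines not marked duplicate gave -0.130 bases for JH4-end loss, -0.141 points for shared bases and -0.0016 for lines per joint, and distinct joints gave 0.064 points for shared bases. Leaving out 1 library gave 0.559 to 0.816 bases for JH4-end loss, -0.924 to 0.220 points for inserts and -0.043 to 0.066 bases for mean insert against DFL16.1. It gave -0.787 to -0.478 bases for D-end loss and 0.351 to 1.43 points for shared bases against D_114687612. Against all other D joints it gave -2.83 to -2.0003 points for inserts and 0.103 to 0.164 for lines per joint. With 6 libraries the smallest possible p of the sign-flip tests is 0.0313. The cause of these changes was not tested. The palindromic bases, whose alternatives were chosen after seeing the data, kept differences of 41.5 to 47.6 points at DQ52 and 34.8 to 40.3 at JH4. None of these alternatives allowed for the bases that cannot appear next to an end, which differ between untrimmed and trimmed ends. The setting of lines not marked duplicate is limited by its at most 249 DQ52 lines per library. It may also give frequent ends less weight, and more so in segments with more marked lines.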
